A study of Mus musculus with 8 samples.

Results

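Paraxial tissue of Geminin mutant mouse embryos was compared with paraxial tissue of wild-type embryos. The comparison rests on 4 of the 8 arrays of the series, chosen by their labels alone: 2 mutant and 2 wild-type samples of paraxial tissue, taken by laser capture microdissection at the E10.5 stage of development. The mutant embryos are labelled fl/fl; cre/o, that is, both Gmnn alleles flanked by recombination sites and 1 copy of a Cre transgene, and the controls are labelled wild type. Both are given as C57BL/6. The labels used here name neither the promoter that drives the Cre nor the cells in which it acts, and the controls are not stated to carry the floxed allele or the transgene. Each sample came from a different embryo, and the same 4 embryos also gave the 4 neural tube samples that complete the series. How many sections were pooled for a sample is not given in the sources used here, and the replicates are 2 embryos per genotype. The standard errors below come from a fit to all 8 arrays. They therefore share the spread of the neural tube arrays and are moderated across genes.

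Geminin is a small nuclear protein that binds the licensing factor Cdt1 and keeps it from loading MCM helicases onto replication origins a second time within a cell cycle. It also binds transcription and chromatin factors and is known for roles in the commitment of embryonic cells. Loss of Geminin is known to cause re-replication and DNA damage in some cell types, and DNA damage stabilises p53, a transcription factor whose targets stop the cycle, repair DNA or start cell death. Paraxial mesoderm forms the somites, whose ventral part (sclerotome) gives vertebrae and ribs and whose dorsal part (dermomyotome and myotome) gives dermis and skeletal muscle. In the myotome, Pax3 and Pax7 mark progenitors, Myf5 and Myod1 commit them, Myogenin starts differentiation, and fusion and sarcomere genes follow.

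Promoter stretches of 7 genes whose values are described below are shown first, because they hold motifs of p53, of myogenic and MEF2 factors, or of GATA and CACCC-binding factors. They were read from RefSeq on mouse build GRCm38.p6, upstream of the annotated start, 5′ to 3′ on the gene's strand, with the matches in capitals. Ccng1, Aen and Rps27l are p53 targets and hold p53 half-sites. The first lies at chr11:40755397-40755516 on the minus strand, the second at chr7:78895888-78896007 and the third at chr9:66946193-66946322, both on the plus strand; Aen and Rps27l each have 2 listed starts.
Ccng1: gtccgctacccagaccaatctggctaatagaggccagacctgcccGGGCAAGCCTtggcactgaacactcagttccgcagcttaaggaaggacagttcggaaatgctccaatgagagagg
Aen: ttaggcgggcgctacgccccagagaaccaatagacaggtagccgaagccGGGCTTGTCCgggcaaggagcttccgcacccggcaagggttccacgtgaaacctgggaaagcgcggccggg
Rps27l: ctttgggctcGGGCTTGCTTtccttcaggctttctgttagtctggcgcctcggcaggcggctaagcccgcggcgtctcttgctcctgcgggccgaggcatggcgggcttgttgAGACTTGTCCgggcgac
Chrna1 and Chrng encode acetylcholine receptor subunits of the muscle membrane, and Myoz2 encodes a sarcomere protein. Their windows hold the E-box CAGCTG that myogenic factors bind, and that of Myoz2 also a MEF2 site. They lie at chr2:73580339-73580458 (minus strand), chr1:87205631-87205750 (plus strand) and chr3:123034988-123035107 (minus strand).
Chrna1: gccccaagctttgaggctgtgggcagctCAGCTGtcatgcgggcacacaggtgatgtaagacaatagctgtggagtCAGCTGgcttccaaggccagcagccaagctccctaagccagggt
Chrng: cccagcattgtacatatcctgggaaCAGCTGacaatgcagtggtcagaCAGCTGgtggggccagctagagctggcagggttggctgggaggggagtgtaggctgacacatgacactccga
Myoz2: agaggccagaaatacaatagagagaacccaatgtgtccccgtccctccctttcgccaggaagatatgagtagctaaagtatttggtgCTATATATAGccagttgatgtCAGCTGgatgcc
Alas2 encodes the first enzyme of haem synthesis in red blood cells. Its window at chrX:150547297-150547416 on the plus strand holds the GATA core AGATAA and overlapping CACCC boxes (CCACCC), all read on the other strand.
Alas2: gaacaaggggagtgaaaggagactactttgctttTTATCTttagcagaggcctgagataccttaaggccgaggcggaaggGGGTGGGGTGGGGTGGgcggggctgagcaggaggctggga
Over the 250 bases before the start, on both strands, a p53 half-site was found in 14 of the 47 p53 target genes with a RefSeq promoter (29.8%, of 55 members) and in 8.2% of 27025 genes. The E-box CAGCTG was found for 18 of 39 sarcomere and muscle membrane genes (46.2%, of 47 members) against 14.7% of all genes, a serum response element (CArG box) for 5 of 39 (12.8% against 1.62%) and a MEF2 site for 4 of 39 (10.3% against 3.42%). AGATAA was found for 5 of 14 erythroid genes (35.7%, of 20 members, against 11.4%) and CCACCC for 10 of 14 (71.4% against 30.6%). A match describes the letters only and was not tested as a site.

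Each array is a 1-colour Agilent design hybridised with Cy5-labelled cDNA. Values are log2 of the red processed signal, set to a common 75th percentile on each array, so 1 unit is a doubling. A level compares arrays for the same probe and not one gene with another. A probe counts as measured where some group of the series had it well above background on each of its 2 arrays, and the brightest such probe stands for its gene, which left 28828 genes. The share of probes well above background was 77.4% and 73.5% in the wild-type and 71.5% and 73.1% in the mutant paraxial arrays, and the 75th percentile of signal was 4430 and 4037 against 3164 and 3713. Across genes, which are not independent replicates, the 2 wild-type arrays correlated at 0.966, the 2 mutant arrays at 0.964, and arrays of different genotype at 0.957 to 0.981, the highest being wild type 2 with mutant 2. Mutant embryo 2 stood apart from the other embryos in Xist, the RNA that coats the inactive X chromosome: 7.0 in its paraxial tissue and 7.25 in its neural tube, against 13.95 to 14.77 on the other 6 arrays. The Y-linked gene Eif2s3y read 10.94 to 11.95 on all 4 paraxial arrays, and Ddx3y, Kdm5d and Uty were not measured. The Eif2s3y probe thus did not set mutant embryo 2 apart as Xist did, and cannot be read as the sex of an embryo. Embryo sex is not given in the labels used here, so whether it was balanced between the genotypes is not known. The rule for measured probes leaves out a gene that is on in 1 embryo alone, since both arrays of a group must pass. Without this filter the median difference of the listed sex-linked genes was 1, against -1.9 for the 2 measured ones. The values below are therefore also given without mutant embryo 2 where this matters, and its part in the results was not tested.

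The tissue label was set beside its markers. Pax3, which marks dermomyotome, read 13.55 to 14.08 on the 4 arrays, and Tcf15, a gene of young somites, 12.92 to 13.89. Meox1 read 12.80 to 13.62, the sclerotome gene Nkx3-2 12.62 to 12.91, and Myod1 11.81 to 12.15. All of these were well above background. On the neural tube arrays Pax3 read 13.83 to 14.59 and Myod1 11.46 to 11.89, so neither tells the tissues apart. Genes of other cell types were measured as well: 27 of 27 endothelial, 20 of 20 red cell, 28 of 28 neuron and 17 of 18 neural crest genes were well above background on all 4 arrays. The same held for 26135 of all 28828 genes tested, so these counts say little about which cells were captured. In such bulk samples, fewer cells of a type and less RNA per cell cannot be told apart.

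In the limma test between genotypes, 428 genes (1.48%) were higher and 540 (1.87%) lower in the mutant at an unadjusted p under 0.05. These were 968 in all, fewer than the 1441 expected by chance at that threshold. No gene passed the test at an adjusted p under 0.05 (limma, 0 of 28828, 0%, with 0.803 the smallest adjusted p). Without mutant paraxial array 1 the count was 17, all lower, without wild-type paraxial array 2 it was 5, and without mutant embryo 1 it was 5. An exact permutation of 2 against 2 arrays cannot give a two-sided p below 0.333. What follows therefore describes levels on 4 arrays, with the standard error of the fit, and no difference named below passed the test. In 6509 genes (22.6%) both mutant values lay above both wild-type values, and in 4249 (14.7%) both lay below. Such genes are called separated upward or downward below, and the counts of them in each group of genes are to be read against these shares. The median difference over all genes, mutant minus wild type, was 0.03, with quartiles at -0.23 and 0.26. Between arrays of the same genotype the median absolute difference was 0.28 in wild-type and 0.33 in mutant tissue. More genes were well above background on both wild-type arrays and neither mutant array (282) than the reverse (43). With each array set to a common median instead of a common 75th percentile, the median over all genes moves from 0.03 to 0.13.

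Gmnn itself was read by a probe at chr13:24843715-24843774 (mm9, minus strand). Its level was 12.20 and 11.88 in wild-type and 11.42 and 11.39 in mutant paraxial tissue. The mutant values were the 2 lowest of the 4, a difference of -0.63 ± 0.25 (SE, n = 2 against 2) or 1.55-fold, with an adjusted p of 0.995 and an unadjusted p of 0.0396. The difference in the neural tube of the same embryos was -0.35. The transcript was thus still well above background in mutant tissue. The labels do not say which part of the gene is removed, so the probe cannot be placed inside or outside of it and checks the labels only in this limited way.

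Among the p53 targets that act in arrest, feedback and repair, Ccng1 had the largest difference. This gene, which encodes cyclin G1, read 8.12 and 8.38 in wild-type and 11.16 and 10.15 in mutant tissue, at a probe at chr11:40562427-40562486 (mm9). Both mutant arrays were higher by well over the gap between replicates, a difference of 2.40 ± 0.36 or 5.27-fold (adjusted p = 0.803). Phlda3, an inhibitor of Akt signalling, read 11.91 and 12.70 against 14.32 and 13.39 (1.55 ± 0.47). Trp53inp1, a cofactor in p53 phosphorylation, read 11.17 and 10.88 against 12.05 and 12.07 (1.04 ± 0.44). These groups did not overlap either. Gtse1 (0.82 ± 0.30), Sesn2 (0.65 ± 0.28), the exonuclease gene Aen (0.58 ± 0.25) and Rps27l (0.57 ± 0.27) were also separated upward. Cdkn1a, the p21 inhibitor of cyclin-dependent kinases, read 14.32 and 15.27 in wild-type and 15.74 and 15.24 in mutant tissue, so its groups overlapped (0.69 ± 0.36). Mdm2, the p53 ubiquitin ligase, differed by 0.16 ± 0.24, and Trp53 itself by 0.27 ± 0.28. Ccng2, a related cyclin gene, went the other way, at 8.59 and 8.66 against 6.52 and 7.46 (-1.64 ± 0.71). Of the 29 measured genes of this list, 21 were higher in the mutant and 13 were separated upward (44.8%, beside 22.6% of all genes), with 4 separated downward.

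The p53 targets of cell death were mostly higher too. Eda2r, a death-domain receptor of the TNF family on the X chromosome (probe at chrX:94531320-94531379, mm9), read 7.93 and 7.47 in wild-type and 10.72 and 9.98 in mutant tissue. The 2.65 ± 0.38 difference, 6.28-fold, was the largest of this list (adjusted p = 0.803), and both of its probes went the same way. Pmaip1, which encodes the BH3-only protein Noxa, read 9.21 and 9.07 against 11.52 and 10.75 (1.99 ± 0.38, 3.98-fold, adjusted p = 0.995). Mutant values for both genes lay clear of the wild-type values on each array. The death receptor gene Tnfrsf10b read 10.04 and 10.64 against 12.27 and 11.75 (1.67 ± 0.62). Dcxr (1.39 ± 0.29), Psrc1 (0.91 ± 0.33), Pidd1, a platform for caspase-2 (0.82 ± 0.28), Kitl (0.77 ± 0.26) and Bbc3, which encodes Puma (0.68 ± 0.31), were separated upward too. Bax, the pore-forming effector, overlapped, at 13.99 and 14.28 against 14.73 and 14.22. Of 26 measured members 24 were higher, 18 of them separated (69.2%), with a median of 0.48 beside 0.03 for all genes. The median over the arrest list was 0.27.

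The p53 differences were larger on the first row of the slide. Mutant 1 against wild type 1 gave a median of 0.77 for the death list, and mutant 2 against wild type 2 gave 0.36. The arrest list gave 0.62 and 0.09. Without mutant embryo 2, whose Xist level stood apart, the medians were 0.71 for death and 0.61 for arrest, and Ccng1 differed by 2.90, Eda2r by 3.03 and Pmaip1 by 2.37. Perp, a death target that also builds desmosomes, is counted among the epithelial genes as well. Members with a half-site had a median of 0.35 and the 33 without one 0.43, so the difference was not larger where the motif was found.

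**Figure D1:**
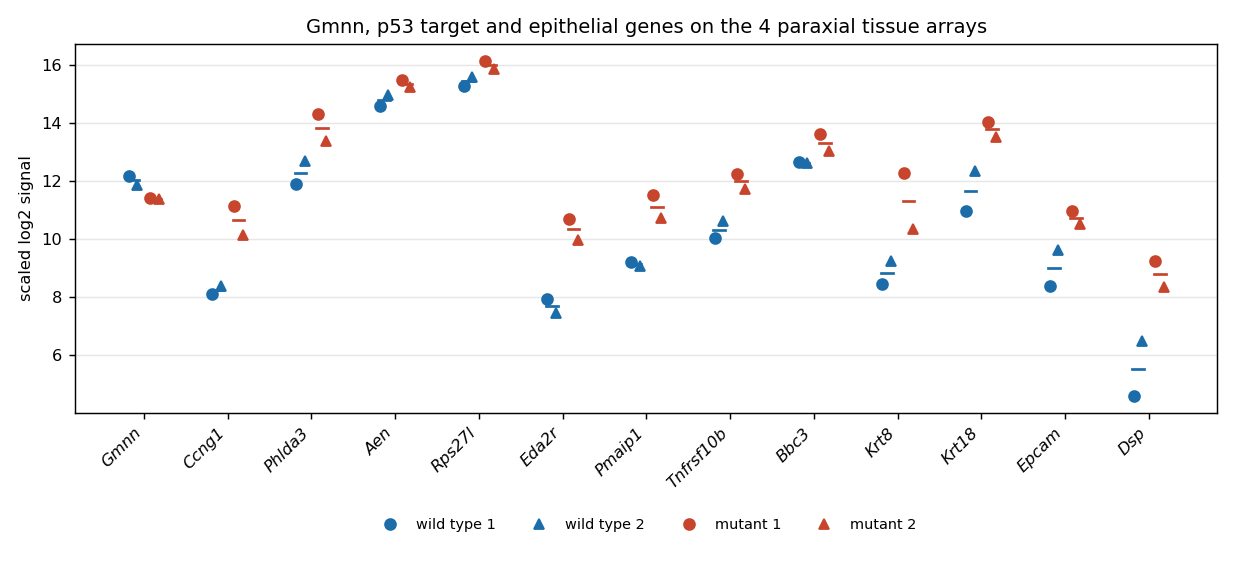
Scaled log2 signal (vertical axis) of Gmnn, p53 targets and epithelial genes on the 4 paraxial arrays. Blue marks are wild type, red marks mutant, circles embryo 1, triangles embryo 2 and bars group means; Gmnn is lower and Ccng1, Eda2r, Pmaip1 and Krt8 are higher on both mutant arrays.

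Genes of the death machinery outside the p53 lists differed by little. Of 22 caspase and BCL2 family genes, 16 were higher, 7 of them separated (31.8%), and the median was 0.17. Endog, a mitochondrial nuclease, had the smallest p of the group, at 0.55 ± 0.30.

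Replication licensing genes, the pathway in which Geminin acts, were slightly higher in the mutant. Orc1, a subunit of the origin recognition complex, read 8.12 and 8.73 in wild-type and 9.72 and 9.04 in mutant tissue (0.96 ± 0.37). Mcm4 read 14.09 and 14.51 against 15.14 and 14.80 (0.67 ± 0.27), and Mcm2 13.85 and 14.01 against 14.82 and 14.31 (0.63 ± 0.31); both encode subunits of the replicative helicase. None of these pairs overlapped. Cdt1, the protein that Geminin inhibits, read 12.24 and 12.43 against 12.75 and 12.56, a difference of 0.32 ± 0.26. Its groups did not overlap, but the difference was close to its standard error. Orc2 (0.50 ± 0.25), Mcm3 (0.52 ± 0.26) and Gins2 (0.53 ± 0.31) were likewise separated upward, while Pcna differed by 0.08 ± 0.31. In all, 36 of 40 measured members were higher and 20 were separated upward (50%); Gmnn was the single member separated downward. Against the list median of 0.27, mutant 1 minus wild type 1 (slide row 1) gave 0.57 and mutant 2 minus wild type 2 (row 2) gave 0.08. The median was 0.17 without wild-type embryo 1 or wild-type paraxial array 1, and also without mutant embryo 1. It was 0.44 without wild-type embryo 2 and 0.42 without mutant embryo 2. The neural tube median was 0.47.

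DNA damage and cell cycle genes differed by less. The damage and repair list had a median of 0.15, with 27 of 35 higher and 9 separated upward (25.7%, close to the 22.6% of all genes). Palb2, which brings Brca2 to breaks, read 9.05 and 9.95 against 10.43 and 10.26 (0.84 ± 0.46), and the checkpoint kinase gene Chek1 11.46 and 11.24 against 11.89 and 11.67 (0.43 ± 0.34). Mitotic genes had a median of 0.13, with Plk1 at 0.56 ± 0.31, and the G1/S list one of 0.09 (-0.09 with quantile scaling), with Cdk1 at 0.53 ± 0.24 and the retinoblastoma gene Rb1 at -0.56 ± 0.22, each separated. Separated shares in these lists (24.2% and 23.1% upward) were near the background.

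Muscle genes were lower in mutant paraxial tissue, with list medians of -0.34 for progenitor regulators, -0.71 for myogenic factors, -0.73 for membrane genes and -1.11 for sarcomere genes. The gaps between these lists were not tested. At the progenitor stage Pax3 read 13.72 and 14.08 in wild-type and 13.66 and 13.55 in mutant tissue (-0.29 ± 0.42), a small separation. Pax7 had means of 10.15 ± 0.48 (SD, n = 2) in wild-type and 8.51 ± 0.68 (SD, n = 2) in mutant tissue, without overlap (-1.64 ± 0.54). Eya1, a transcriptional coactivator gene of muscle precursors, was separated upward by 0.34 ± 0.25, and Tcf21, a gene of head muscle and other mesoderm, read 5.77 and 8.75 against 10.83 and 9.05 (2.68 ± 1.02). The dermomyotome list as a whole thus had no common direction, with 6 of 14 higher, 8 lower and 5 separated each way. Its median was 0.18 without wild-type embryo 2.

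Among the myogenic factors, Myod1 was level, at 11.83 and 12.06 in wild-type and 11.81 and 12.15 in mutant tissue (0.03 ± 0.25). Its probe also read 11.46 to 11.89 in neural tube, so it cannot show whether this gene differs in muscle cells. Myog, which encodes Myogenin, read 9.79 and 11.34 against 8.59 and 9.78 (-1.38 ± 0.59). Mymx, a fusion peptide gene, read 10.72 and 12.13 against 8.72 and 9.42 (-2.35 ± 0.65), and the other fusion gene, Mymk, 10.62 and 11.30 against 9.88 and 10.18 (-0.93 ± 0.60). Myog, Mymx and Mymk were lower on both mutant arrays without overlap, although the 2 wild-type embryos themselves lay over 1 unit apart for Myog and Mymx. Vgll2, a TEAD cofactor, differed by -0.87 ± 0.30, and the muscle cadherin gene Cdh15 by -1.1 ± 0.53. The transcription factor genes Mef2c (-0.55 ± 0.40), Mef2d (-0.12 ± 0.27) and Tead4 (-0.09 ± 0.34) overlapped, and Mef2a was separated upward (0.27 ± 0.23). For Mef2a and Mef2d the gene's other measured probe did not go the same way. The list of 10 had a median of -0.71 with 5 separated downward (50%, beside 14.7% of all genes). Without wild-type embryo 2 the median was -0.22, and without wild-type paraxial array 2 it was -0.26. It was -0.46 without mutant embryo 1 and -1.13 without wild-type embryo 1.

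Genes of the muscle membrane and the neuromuscular junction were lower in 17 of 18 cases, 11 of them separated (61.1%), with a median of -0.73. Cav3, the muscle caveolin, read 7.18 and 8.18 in wild-type tissue and was well above background on neither mutant array (5.36 and 4.90). For such genes a lower bound is given from the lowest signal well above background, which for Cav3 put wild type at least 1.58-fold above mutant tissue (fitted difference -2.55 ± 0.55). Such bounds hold for the processed signal only. With normexp, a model-based background correction that adds an offset of 50 and so draws dim signals together, Cav3 differed by -0.52 (1.43-fold), and 12 of the 14 bounds printed here were not reached. The acetylcholine receptor subunit genes were lower together. Chrnd read 8.93 and 9.99 against 7.58 and 8.36 (-1.49 ± 0.45), Chrng 12.56 and 13.84 against 11.40 and 12.40 (-1.30 ± 0.63), and Chrnb1 8.34 and 9.39 against 7.24 and 7.96 (-1.26 ± 0.41). Chrna1 read 10.53 and 11.47 against 9.92 and 10.13 (-0.97 ± 0.81). Casq2, a calcium store protein gene, differed by -1.16 ± 0.46 and the calcium pump gene Atp2a1 by -0.54 ± 0.32. Dysf was the single member on the higher side, at 0.18 ± 0.37. The list median was -0.23 without wild-type paraxial array 2, -0.30 without wild-type embryo 2, -1.17 without wild-type embryo 1 and -1.30 without wild-type paraxial array 1.

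Every one of the 29 measured sarcomere genes was lower in the mutant, with 19 separated (65.5%) and a median of -1.11. Myoz2, which ties calcineurin to the Z-disc, read 8.15 and 8.82 in wild-type tissue and 5.01 and 5.21, not well above background, in mutant tissue, so wild type was at least 2.77-fold higher (fitted -3.38 ± 0.50, adjusted p = 0.803), but 1.87-fold with normexp. Myh15, a sarcomeric myosin gene, read 7.63 and 8.21 against 5.34 and 5.04, at least 1.87-fold, or 1.69-fold with normexp. On the 4 neural tube arrays Myoz2 read 4.13 to 4.95 and Myh15 4.27 to 5.01, so both were as low there in wild-type as in mutant embryos. Unc45b, a myosin chaperone gene, read 9.79 and 10.26 against 6.57 and 8.45 (-2.51 ± 0.91). The embryonic myosin gene Myh3 read 14.14 and 14.98 against 12.21 and 13.71 (-1.61 ± 0.77), skeletal actin Acta1 14.91 and 15.74 against 12.64 and 14.82 (-1.59 ± 0.80), and titin, Ttn, 12.22 and 13.43 against 10.19 and 11.90 (-1.78 ± 0.91). These 3 major fibre genes were lowest on mutant array 1 and highest on wild-type array 2, and the groups did not overlap. Slow troponin C, Tnnc1, read 13.80 and 14.20 against 12.56 and 13.23 (-1.11 ± 0.41). Des (-0.16 ± 0.50), Tnni2 (-0.22 ± 0.68) and Myl2 (-0.24 ± 0.28) were nearest to 0 and overlapped.

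The sarcomere difference was -1.25 for mutant 1 minus wild type 1 and -0.98 for mutant 2 minus wild type 2. These slide rows match embryos by number only. The median from both embryos of each genotype was -1.07 over the 24 members well above background on all 4 paraxial arrays. Leaving out mutant embryo 1 gave -0.66, wild-type embryo 2 -0.68 and mutant paraxial array 1 -0.71, and leaving out mutant embryo 2 gave -1.66. Mean levels of the list were 12.29 and 13.12 in wild-type against 10.97 and 11.94 in mutant tissue, so mutant 2 lay only a little under wild type 1. In the neural tube the same list read 9.17 to 9.90 and differed by -0.22. Sarcomere and membrane genes with the E-box CAGCTG had a median of -0.93 and the 21 without it -1.11. The 4 with a MEF2 site had one of -1.56, against -1.01 for the 35 without. For the CArG box the medians were -0.57 for the 5 with it and -1.10 for the 34 without.

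**Figure D2:**
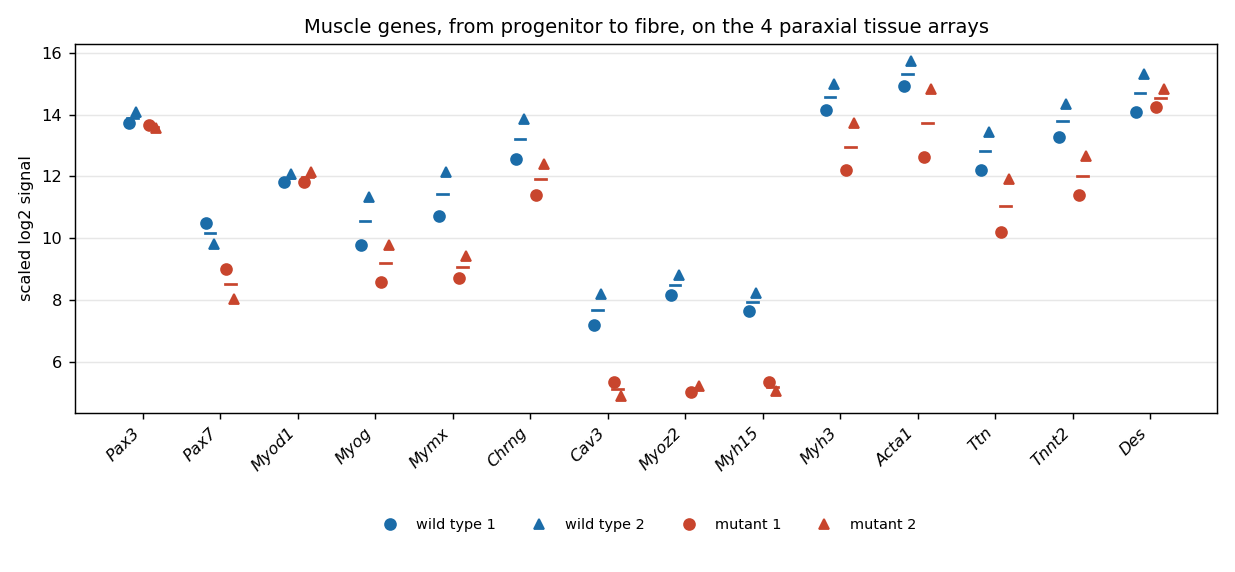
Scaled log2 signal (vertical axis) of muscle genes ordered from progenitor to fibre on the 4 paraxial arrays, with blue for wild type, red for mutant, circles for embryo 1, triangles for embryo 2 and bars for group means. Myod1, whose probe reads much the same in neural tube, is level. Mymx, Cav3, Myoz2 and Myh15 are lower on both mutant arrays and Des overlaps.

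The other parts of the somite showed single genes rather than a common direction. In the sclerotome list 10 of 24 members were higher and 14 lower, with a median of -0.17, or 0.27 without wild-type paraxial array 1. Pax9, needed for vertebral bodies, read 12.05 and 12.15 in wild-type and 10.63 and 10.05 in mutant tissue (-1.76 ± 0.96), and Pax1 12.63 and 12.70 against 12.02 and 11.37 (-0.96 ± 1.99). Sox5, a cartilage factor gene, read 9.83 and 9.75 against 8.11 and 8.95 (-1.26 ± 0.31), and its partner Sox9 11.57 and 11.34 against 10.73 and 10.81 (-0.68 ± 0.46). All 4 were separated downward, but the standard error for Pax1, which shares the spread of the neural tube arrays, exceeded its difference. Prrx2, a gene of lateral and limb mesenchyme, was separated upward, at 11.58 and 12.87 against 14.19 and 13.50 (1.62 ± 0.65). Nkx3-2, Foxc2, Twist2 and Scx overlapped. Genes of the cartilage matrix went both ways: Col2a1 (-0.41 ± 0.32) and Col9a1 (-0.68 ± 0.54) were separated downward, and Col11a1 (0.68 ± 0.79) and Acan (0.35 ± 0.28) upward. Of the 34 extracellular matrix genes, these included, 28 were higher and 11 separated upward (32.4%). Col1a1 had the smallest p (14.19 and 14.13 against 14.61 and 14.83, 0.56 ± 0.24) and Hapln1 the largest difference (0.93 ± 0.59). The list had a median of 0.28 that was -0.01 without wild-type paraxial array 2. Segmentation genes had a median of -0.26 and 3 of 18 separated downward (16.7%), near the background. Heyl, a Notch target gene, read 10.08 and 9.51 against 6.98 and 8.25 (-2.18 ± 1.41), and Mesp2 9.91 and 8.98 against 8.90 and 8.96.

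Markers of cell types other than somite cells also differed between the genotypes. Surface ectoderm and epithelial genes were higher in 30 of 31 cases, 24 of them separated (77.4%). Krt8, a keratin of simple epithelia (probe at chr15:101827138-101827197, mm9), read 8.45 and 9.27 in wild-type and 12.30 and 10.35 in mutant tissue (2.47 ± 0.61, 5.54-fold, adjusted p = 0.995). Its partner Krt18 read 10.97 and 12.37 against 14.05 and 13.54 (2.13 ± 0.48). Both keratin genes were higher on each mutant array. The adhesion gene Epcam read 8.39 and 9.64 against 10.98 and 10.52 (1.74 ± 0.43), and the tight junction gene Cldn6 9.66 and 11.31 against 13.79 and 12.43 (2.62 ± 0.70). Desmoplakin, Dsp, was well above background on both mutant arrays (9.25 and 8.37) and neither wild-type array (4.61 and 6.49), at least 4.37-fold, or 2.36-fold with normexp. Krt5, a basal keratin, read 10.91 and 11.79 against 12.48 and 12.72 (1.25 ± 0.35). The epidermal regulator Trp63 (0.26 ± 0.34) and Krt14 (0.16 ± 0.23) differed by less than their standard errors, unlike Krt5. The list median was 0.78, or 0.76 over the 26 members well above background on all 4 paraxial arrays, and 1.13 without mutant embryo 2. In neural tube it was 0.26. List means were 10.25 and 10.68 in wild-type and 11.71 and 11.31 in mutant tissue. Gut endoderm and notochord genes gave 11 of 13 higher, a median of 0.69, and, among the separated ones, Gata6 (7.74 and 9.44 against 10.24 and 11.21) and Foxa2 (5.24 and 7.13 against 9.31 and 7.73).

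Endothelial genes were higher in 26 of 27 cases, 21 separated (77.8%), with a median of 0.66. Plvap, a protein of endothelial fenestrae, read 12.32 and 13.09 in wild-type and 13.63 and 13.34 in mutant tissue (0.78 ± 0.33). The transcription factor gene Erg read 9.44 and 10.26 against 10.51 and 11.12 (0.97 ± 0.43), and the VEGF receptor gene Flt1 9.40 and 9.40 against 10.84 and 10.21 (1.12 ± 0.58). Differences were thus modest and shared by most members, with Kdr, the main VEGF receptor, at 0.25 ± 0.27 and Pecam1 overlapping. The median was 0.37 without mutant paraxial array 1, 0.38 without wild-type paraxial array 2, 0.44 without wild-type embryo 1 and 0.92 without mutant paraxial array 2. In neural tube it was -0.14.

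Red cell genes gave 18 of 20 higher and 15 separated (75%), with a median of 0.54. Ahsp, which stabilises alpha globin, read 12.70 and 12.50 in wild-type and 14.33 and 13.61 in mutant tissue (1.37 ± 0.33). The embryonic globin gene Hbb-y read 16.08 and 16.25 against 17.24 and 17.05 (0.98 ± 0.24), and Alas2 13.11 and 13.20 against 14.03 and 14.07 (0.90 ± 0.23). Wild-type replicates lay close together here, and all 3 genes were clear of them on both mutant arrays. Slc4a1 (0.84 ± 0.29), Hba-a1 (0.78 ± 0.29) and the erythroid factor gene Klf1 (0.76 ± 0.29) were separated as well; globin genes have near-identical copies, so their single values are uncertain. Without wild-type paraxial array 2 the median was 0.34. White cell genes had a median of 0.11, from -0.39 on slide row 1 to 0.65 on row 2, with C1qa at 9.92 and 9.78 against 8.39 and 11.37.

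Genes of neurons were lower, with wild-type embryo 1 above the other 3 embryos. Robo3, a guidance receptor of crossing axons, read 12.48 and 9.89 in wild-type and 7.34 and 7.83 in mutant tissue (-3.60 ± 1.29). Doublecortin, Dcx, read 14.02 and 12.15 against 10.52 and 11.71 (-1.97 ± 0.93), and Cntn2 14.63 and 13.49 against 11.96 and 12.65 (-1.75 ± 0.77). In all 3 the first wild-type array was the highest of the 4. Of 28 neuron genes 24 were lower and 16 separated downward (57.1%); the median of -0.96 was -1.80 on slide row 1 and -0.11 on row 2, and -0.17 without wild-type embryo 1. It was -0.33 without wild-type paraxial array 1, -1.52 without wild-type paraxial array 2 and -1.66 without wild-type embryo 2. List means were 13.36 and 12.08 in wild-type and 11.69 and 11.81 in mutant tissue. Sensory neuron genes followed, with a median of -0.75 that was -0.28 without wild-type embryo 1. Neural crest genes were evenly split, 9 higher and 9 lower, with Sox10 at 14.81 and 14.59 against 14.81 and 14.77. Neural tube progenitor genes had a median of -0.31, which became 0.08 without mutant embryo 2.

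Genes of intermediate and lateral mesoderm and limb were higher in 12 of 15 cases, 5 separated (33.3%), with a median of 0.91. Alx1, a mesenchyme homeobox gene, was well above background on both mutant arrays (8.0 and 9.13) and neither wild-type array (4.36 and 6.29), at least 3.69-fold, or 2.34-fold with normexp. Hand2, of limb and flank mesoderm, read 4.37 and 8.46 against 8.90 and 11.87 (3.98 ± 2.03), and Irx3 11.83 and 11.86 against 12.72 and 12.84 (0.93 ± 0.35). The kidney lineage gene Wt1 overlapped widely, at 10.39 and 13.01 against 10.82 and 13.70. The median was 0.65 over the 11 members well above background throughout, 0.25 without mutant embryo 2 and 1.5 without mutant paraxial array 1. Levels of epithelial, endothelial, red cell, neuron and flank markers therefore differed with genotype or with single embryos beside the muscle and p53 differences. Their part in those results was not tested.

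**Figure D3:**
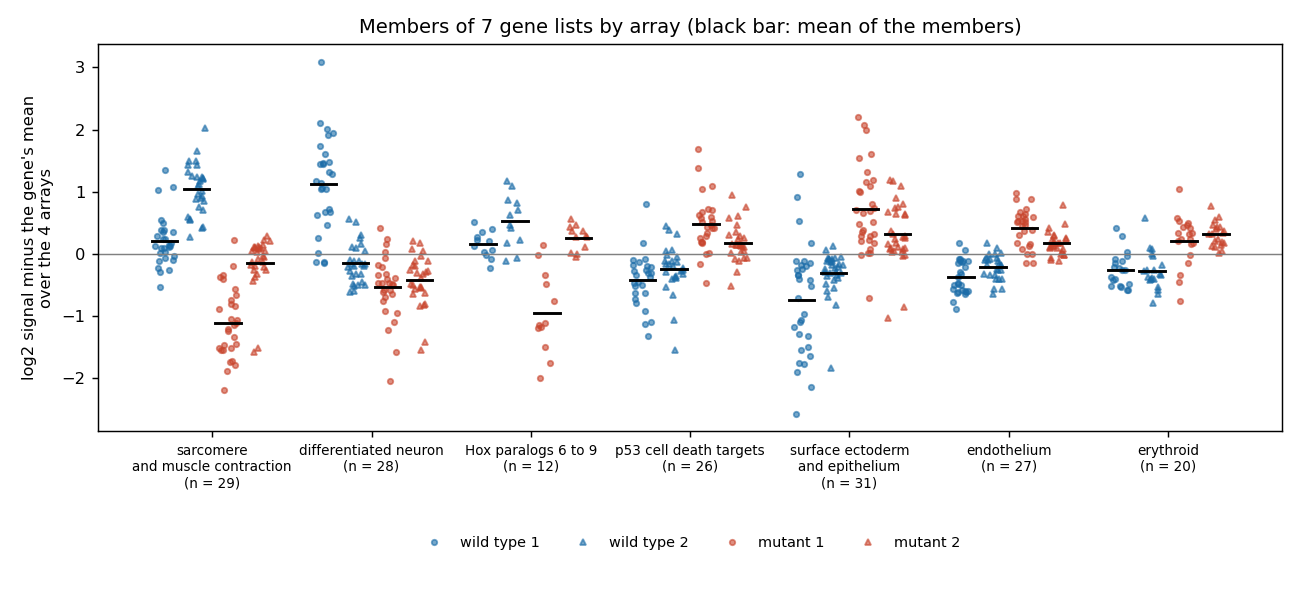
Log2 signal of each member minus that gene's mean over the 4 paraxial arrays (vertical axis), for 7 gene lists, with blue for wild type, red for mutant, circles for embryo 1, triangles for embryo 2 and black bars for the mean of the members. Sarcomere members sit lowest on mutant 1, neuron members are high on wild type 1 only, and epithelial, endothelial and red cell members are higher on both mutant arrays.

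Signalling genes were examined by pathway. In the retinoic acid pathway, which patterns somites and cord, 13 of 17 members were higher, 8 separated (47.1%), median 0.36. Aldh1a2, the enzyme that makes retinoic acid, read 12.83 and 13.39 in wild-type and 14.72 and 14.30 in mutant tissue (1.40 ± 0.44). Cyp26b1, an enzyme that degrades it, read 10.46 and 10.86 against 12.44 and 12.02 (1.57 ± 0.43), and Cyp26c1 7.56 and 5.88 against 10.68 and 8.03 (2.63 ± 1.01). Genes for the making and the removal of the ligand were thus both higher. The receptor gene Rarb, itself a target, overlapped (0.44 ± 0.49). The list median was 0.08 without mutant embryo 1, 0.23 without mutant paraxial array 1 and 0.56 without wild-type paraxial array 1.

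Wnt targets and feedback genes were higher in 18 of 23 cases with 14 separated (60.9%), median 0.37. Rnf43, a ligase gene that limits Wnt receptors, was well above background in mutant tissue alone (8.21 and 8.15 against 4.56 and 6.94), at least 2.61-fold, or 1.93-fold with normexp. The inhibitor gene Dkk1 read 6.92 and 4.65 against 9.01 and 7.59 (2.51 ± 0.80), and Sp5 9.23 and 10.47 against 12.43 and 10.89 (1.81 ± 0.67). Axin2, a widely used readout of the pathway, was nearly level, at 11.19 and 11.10 against 11.38 and 11.23. Tcf7 (1.16 ± 0.39) and Lef1 (0.61 ± 0.28) were separated upward, and Porcn, which acylates Wnt ligands, downward (9.31 and 9.28 against 7.74 and 8.14, -1.35 ± 0.24). The list median was 0.17 without mutant paraxial array 1 and 0.23 without mutant embryo 1.

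BMP and TGF-beta targets were higher in 13 of 16 cases, 7 separated (43.8%), median 0.43. Id1 read 11.47 and 11.51 against 12.72 and 12.18 (0.96 ± 0.30) and Msx1 10.53 and 9.65 against 11.35 and 11.02 (1.1 ± 0.42), both clear of wild type, whereas Id4 was lower (-1.51 ± 0.82) and Smad6 overlapped. On the ligand side the antagonist gene Fst, which encodes follistatin, read 10.69 and 11.85 against 14.44 and 12.80 (2.35 ± 0.58, 5.10-fold), Tgfb1 had a mean of 11.8 ± 0.17 (SD, n = 2) against 12.86 ± 0.19 (SD, n = 2), a difference of 1.06 ± 0.36, and Bmp2 8.93 and 9.79 against 10.94 and 9.96 (1.09 ± 0.53). The receptor gene Bmpr1b was lower (11.23 and 10.91 against 10.00 and 10.35). Ligands, antagonists and receptors together had no common direction, 11 higher and 10 lower with a median of 0.08 (-0.03 with quantile scaling). Hedgehog genes gave 16 of 20 higher and 10 separated (50%), median 0.25, or 0.05 without wild-type embryo 1, with Ptch1, receptor and target, at 12.71 and 12.95 against 13.46 and 13.10 (0.45 ± 0.24). FGF genes had a median of 0.17 and 4 of 19 separated upward (21.1%), with Fgf3 at 7.51 and 7.19 against 9.31 and 8.41 (1.51 ± 0.54) and Fgf4 at -0.95 ± 0.45.

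Hox genes, which give position along the axis, differed by paralog group and by embryo. Hox1 to Hox5 genes had a median of 0.08 (-0.07 with quantile scaling). Hoxb1 was well above background only on mutant array 1 (9.83). Hox6 to Hox9 genes were lower in 11 of 12 cases, median -0.75, but 3 alone were separated. Hoxc8 read 14.20 and 15.10 against 11.93 and 14.50, Hoxa9 14.67 and 14.79 against 13.13 and 14.69, and Hoxc9 12.20 and 12.56 against 10.19 and 11.80. Mutant embryo 1 was low for all 3, and mutant embryo 2 was near wild type. Without mutant embryo 1 the median was -0.05, without wild-type embryo 2 it was -0.42, and without mutant embryo 2 it was -1.51. Among Hox10 to Hox13 genes the median of -0.66 turned to 0.23 without mutant embryo 1. Hoxd10, for example, read 12.12 and 12.53 against 9.97 and 12.58. Hoxc11 was well above background on both wild-type arrays (7.5 and 9.51) and neither mutant array (5.06 and 4.86), at least 2.80-fold, and 4.88-fold with normexp. The neural tube of mutant embryo 1 was also low for the posterior group, with a list mean of 7.64 against 10.52 to 11.44 in the other 3 embryos. Mutant embryo 1 was thus the lowest for these genes in both tissues, and the part of this in the other results was not tested.

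Genes of the integrated stress response and heat shock had a median of 0.26, with 9 of 18 separated upward (50%), and Atf3 read 10.51 and 10.54 against 11.89 and 11.05 (0.95 ± 0.31). Immediate early genes had a median of 0.21, with 7 of 17 separated upward (41.2%). In the other lists medians were closer to that of all genes. Polycomb genes had a median of -0.06 (0.03 with median scaling, 0.05 with normexp), SWI/SNF genes 0.09 (-0.05 with quantile scaling) and interferon genes 0.05, although Ifitm3, a membrane protein gene, read 11.63 and 12.14 against 14.11 and 13.24 (1.79 ± 0.36). Glycolysis and hypoxia genes had a median of 0.15 (-0.05 with quantile scaling) and imprinted growth genes 0.20 (-0.03 with quantile scaling), with 16 of 18 higher and 5 separated upward (27.8%). None of the 851 measured genes of the lists, of 934 listed, passed the test.

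**Figure D4:**
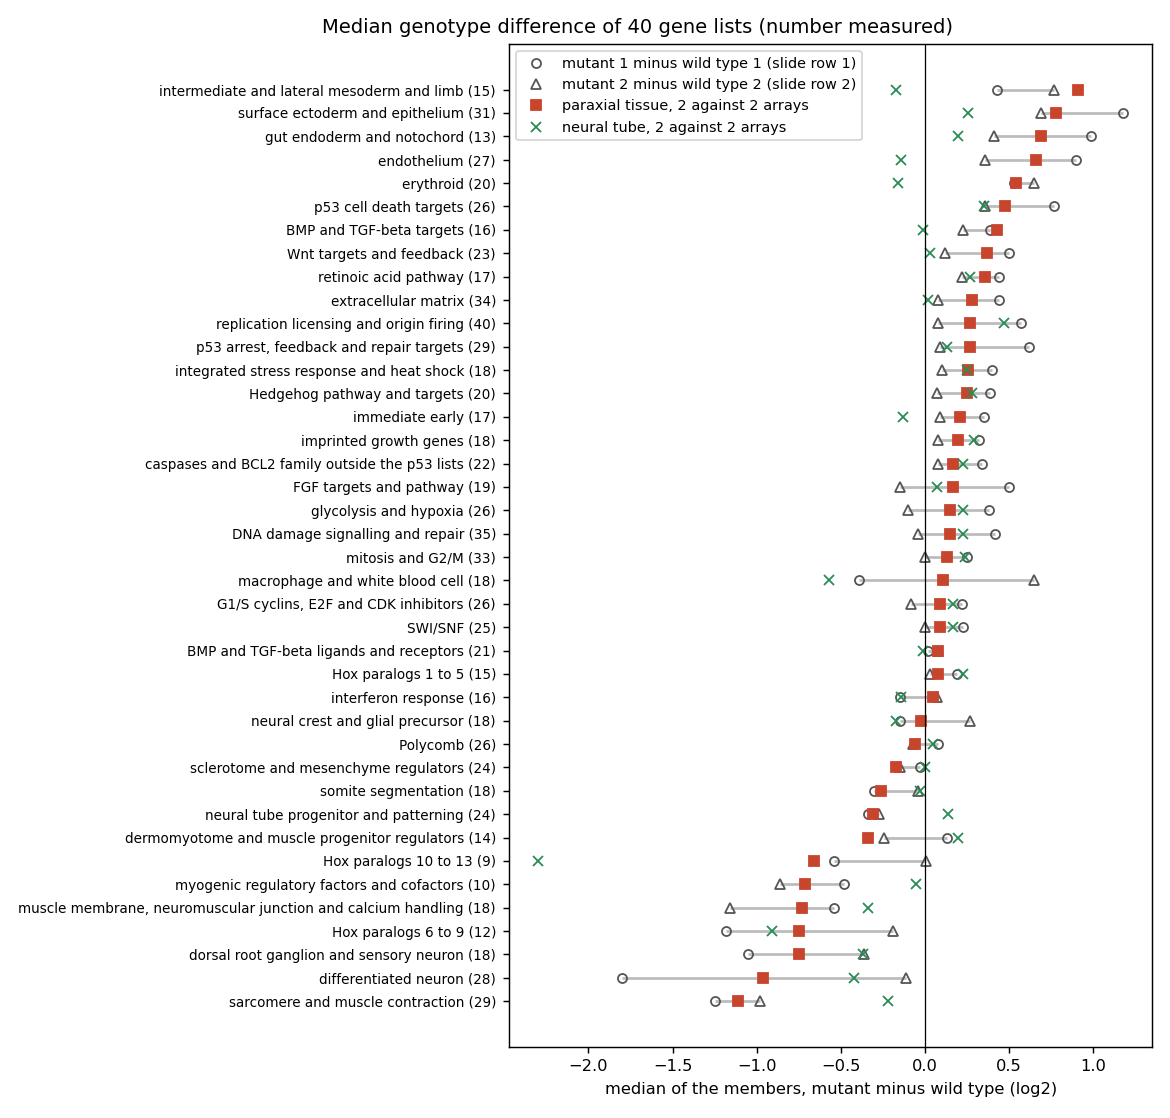
Median of mutant minus wild-type log2 differences over the measured members of 40 gene lists (horizontal axis), with red squares for paraxial tissue, green crosses for neural tube and open marks for the differences on each slide row. Among the paraxial medians, sarcomere genes are lowest at -1.11 and lateral mesoderm and limb genes highest at 0.91; in neural tube Hox10 to Hox13 genes lie lower still, at -2.3; the open marks of the neuron list lie far apart, at -1.80 and -0.11.

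Genes outside the lists were named by the smallest p and the largest difference in each direction. On the lower side Cpne6, a calcium-dependent lipid-binding protein gene, had the smallest p: 9.52 and 8.42 in wild-type and 5.01 and 5.21, not well above background, in mutant paraxial tissue. Wild type was at least 3.87-fold higher (fitted -3.86 ± 0.44, adjusted p = 0.803), but 2.32-fold with normexp. Myoz2 had the same mutant values, so the standard errors and the p ranking of such genes rest in part on readings near background. In neural tube Cpne6 read 9.33 to 9.65 in all 4 embryos, and the difference between tissues did not pass the test. Tmx4, a thioredoxin-like membrane protein gene, read 9.12 and 8.56 against 6.79 and 6.69 (at least 3.54-fold, 1.46-fold with normexp), and Gpr85, an orphan receptor gene, 8.69 and 8.59 against 5.11 and 6.03 (at least 3.08-fold, 1.84-fold with normexp). Ppm1k, a mitochondrial phosphatase gene of branched-chain amino acid breakdown, was lower in both tissues: 6.88 and 7.31 against 4.81 and 4.67 in paraxial tissue, at least 1.05-fold (1.19-fold with normexp), and -2.41 in neural tube. Gm3359 (-2.06 ± 0.28) behaved likewise, at -1.86 in neural tube, but gave 0.14 in paraxial tissue with normexp. Among genes well above background on all 4 arrays, the named genes with the largest lower differences were Robo3, Gm7293, the proteoglycan gene Ncan (14.94 and 12.11 against 10.03 and 11.41), a probe listed as XIST, Chodl, Ablim3 (12.71 and 13.41 against 9.57 and 11.34), 9130015G15Rik, Islr2 and Ppp1r1c, in that order. The XIST probe differed by -0.51 on slide row 1 and -4.80 on row 2, so its difference came mainly from mutant embryo 2. Gm7293 owed its difference to mutant array 2 alone (14.77 and 14.98 against 13.97 and 9.80). Islr2 read 11.69 and 10.02 against 7.68 and 8.90.

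On the higher side, Eda2r and Ccng1 were among the 4 smallest p-values. Gata6os, an RNA next to Gata6, was well above background in mutant paraxial tissue alone, 9.02 and 7.67 against 4.46 and 4.5, at least 3.17-fold, or 2.81-fold with normexp. Cyp1b1, a cytochrome that oxidises retinoids and steroids, read 9.52 and 8.83 against 4.6 and 6.03 (at least 5.63-fold, 2.79-fold with normexp), and Cnksr1, a scaffold of Ras signalling, 9.67 and 8.46 against 4.37 and 5.47 (at least 5.20-fold, 3.2-fold with normexp). These 3 genes were not well above background on either wild-type array. Ahnak2 read 9.57 and 9.06 against 11.92 and 11.03 (2.15 ± 0.36), Samd12 7.96 and 7.43 against 9.60 and 9.10 (1.66 ± 0.29, or 0.90 with normexp) and Espn, an actin-bundling protein gene, 7.24 and 8.10 against 9.64 and 9.32 (1.81 ± 0.33, or 1.05 with normexp). Bhlha9, a limb ectoderm factor gene, read 10.49 and 9.01 against 13.07 and 11.53 (2.55 ± 0.65) and Lhx2, a limb and brain homeobox gene, 9.96 and 8.56 against 10.46 and 12.37 (2.16 ± 0.73). Jaml, a junctional adhesion gene, had the largest difference among the separated genes that were well above background on all 4 paraxial arrays. It read 7.63 and 10.49 against 11.10 and 12.51 (2.74 ± 1.21). Its 2 wild-type values lay farther apart than the group means.

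The neural tube of the same embryos was set beside paraxial tissue to see where the genotype difference was shared. At an unadjusted p under 0.05 in the limma interaction test, 1490 genes differed between tissues in their genotype difference, beside 1441 expected by chance. No gene did so at an adjusted p under 0.05 (limma interaction, 0 of 28828, 0%). The count was 33 without wild-type paraxial array 2, 18 without wild-type paraxial array 1, 18 without mutant paraxial array 1 and 6 without mutant embryo 1. Ccng1 differed by 2.40 in paraxial tissue and 1.30 in neural tube, Eda2r by 2.65 and 1.77, Pmaip1 by 1.99 and 0.63, and Krt8 by 2.47 and 1.35. All 4 were thus higher in both tissues and more so in paraxial tissue, with the gap not passing the test. The p53 death list had medians of 0.48 and 0.35, the licensing list 0.27 and 0.47, and the sarcomere list -1.11 and -0.22. Endothelial genes (0.66 and -0.14), red cell genes (0.54 and -0.16) and flank and limb genes (0.91 and -0.17) had medians of opposite sign.

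**Figure D5:**
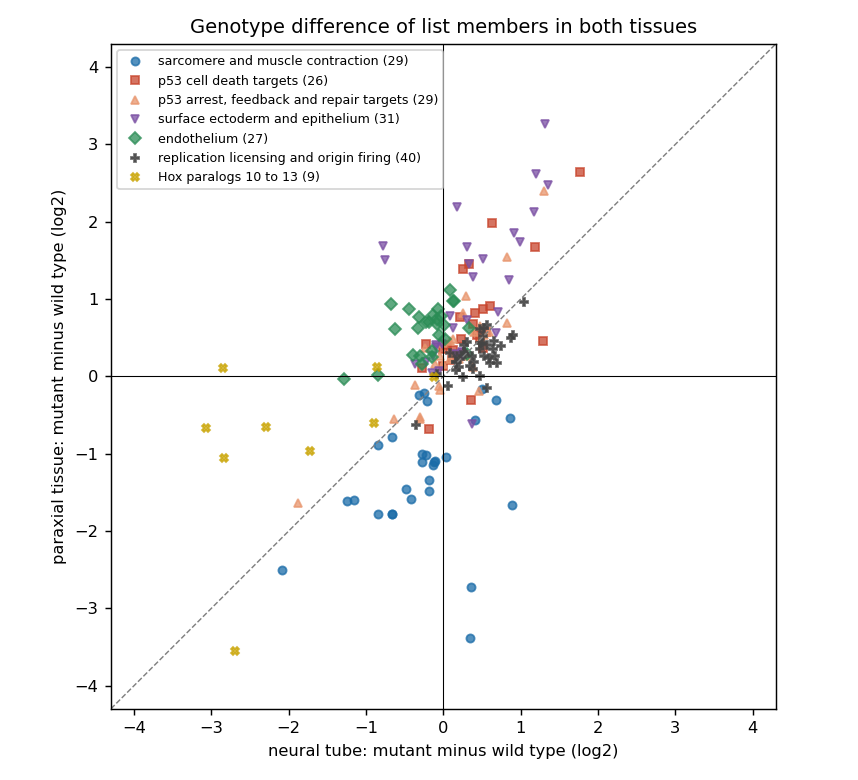
Mutant minus wild-type log2 difference in neural tube (horizontal axis) and paraxial tissue (vertical axis), one point per member of 7 gene lists; the dashed line marks equal differences. p53 targets lie mostly above 0 in both tissues, sarcomere members lie below 0 in paraxial tissue, and posterior Hox genes lie farther below 0 in neural tube.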

How the data were processed

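Total RNA from laser-captured tissue of 4 embryos was labelled with Cy5 and read on 8 arrays of 1 slide, scanned once. Per the file headers, the deposited intensity files come from Agilent Feature Extraction 11.0.1.1 on a mouse design of build mm9, whose red processed signal is already background-subtracted. Of 62976 spots, 3671 controls were left out, and 55664 probes had values. Here log2 of the signal was set to a common 75th percentile and fitted with limma 3.58.1 (R 4.3.3) as 4 group means, with the embryo as a random block (correlation 0.603, 4 residual and 2.94 prior degrees of freedom), and Benjamini-Hochberg adjustment at 0.05 over all genes. Replicate numbers mark different embryos and pair nothing. Probe names were updated by RefSeq accession (26045), symbol (3200) or older symbol (930). The deposited value table gave the same values to within 0.497%.

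Genes named are Gmnn, Ccng1, Pmaip1 and Krt8, the 10 smallest p-values among separated genes and the 10 largest differences above background in each direction (probes without a gene symbol were left unnamed), and, for each of 41 gene lists, those members (at most 6) that had the lowest p, or all of them in short lists. Beyond the rule, some list members were named for their known role. The members and lists were chosen with earlier results of these data known, so lists are described by counts and medians and not tested. The fit was tested on simulated data of 28828 genes. At an adjusted p under 0.05 it recovered 0% of set differences of 1 log2 unit and 40% of those of 2. It recovered 86% of those of 3 and 98% of those of 4, with 7 false calls. A count of 0 genes passing therefore does not show that no gene differed. Alternatives covered scaling, background correction, filter, probe choice, block and each array or embryo left out. The number of arrays limits the precision. Some genes that the rule could name are not reported here.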

Additional observations from a re-analysis of the deposited data

Results flagged for a closer look

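The mean of the red cell genes differed in opposite directions in the 2 tissues. On the paraxial arrays it was 12.24 and 12.22 in wild-type and 12.71 and 12.81 in mutant embryos. On the neural tube arrays it was 12.03 and 12.26 in wild-type and 11.88 and 11.88 in mutant embryos. Both mutant embryos were thus above both wild-type embryos in paraxial tissue and below both in neural tube, a gap between the 2 differences of 0.79. This difference between tissues was not tested.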

How the results depend on the processing

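The count of genes changed in mutant paraxial tissue was 0 with every other scaling (quantile, median, cyclic loess), with normexp, the authors' value table, the other filters and probe choice, the paraxial arrays alone, no embryo block and trended moderation, with 718 to 1248 genes at an unadjusted p under 0.05 in limma. It ranged from 0 to 17 when single arrays or embryos were left out. The count of genes whose genotype difference differs between paraxial tissue and neural tube ranged from 0 to 33 in the same way and was 4 with cyclic loess scaling. With the slide row as a replicate block both counts were 0 (1406 and 1199 at an unadjusted p under 0.05), and no call differed. Same-numbered embryos of different genotype deviated together at 0.291 in paraxial tissue and 0.289 in neural tube, but they are different embryos. The erythroid median was 0.63 with median scaling and 0.45 with normexp, and Gm3359 turned to 0.14 with normexp (limma adjusted p = 0.999); the cause was not tested. With normexp the medians of progenitor regulators (-0.14), sclerotome (-0.07) and segmentation genes (-0.09) were also nearer to 0. Over the arrays and embryos left out, list medians ranged from -1.66 to -0.66 for sarcomere genes, -1.13 to -0.22 for myogenic factors, -1.66 to -0.17 for neurons, -1.51 to -0.05 for Hox6 to Hox9, 0.6 to 1.13 for epithelium, 0.37 to 0.92 for endothelium, 0.34 to 0.72 for erythroid genes, 0.2 to 0.61 and 0.39 to 0.71 for p53 arrest and death targets, and 0.17 to 0.44 for licensing genes, so none of these turned. With a whole embryo left out, 2 residual degrees of freedom remained and the embryo correlation was kept at that of all arrays. Where 1 array of a group was left, it was taken to vary like the other groups. Across all of these settings Gmnn differed by -0.79 to -0.47, Ccng1 by 1.71 to 2.90, Pmaip1 by 1.57 to 2.37 and Krt8 by 1.5 to 3.44.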

Other observations

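Some genes read far lower on 1 array alone, in part near background. Gm16399 read 13.07 and 13.06 in wild-type paraxial tissue, 13.36 in mutant 1 and 4.71 in mutant 2. Cdc16, a subunit of the anaphase-promoting complex, read 12.23 and 12.75 against 13.04 and 4.75, and the ferritin gene Ftl1 16.39 and 16.44 against 16.80 and 11.81. The neural tube of the same mutant embryo did not share the low reading of Cdc16. These 3 genes were among the 17 that passed limma's test when mutant paraxial array 1 was left out, and were picked after their values were seen. Gtf2f1, a general transcription factor gene among the 5 that passed without wild-type paraxial array 2, was low on wild-type paraxial array 1 alone, at 7.25 against 13.13 to 13.60.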
